A study of Mus musculus with 30 samples.

Results

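The genes described here are 10 inflammatory CC chemokines, Ccl2, Ccl3, Ccl4, Ccl5, Ccl7, Ccl8, Ccl12, Ccl17, Ccl20 and Ccl22, in lungs and spleens of mice given lipopolysaccharide (LPS) or PBS. They were taken by gene symbol from a list of names, with no measured value in the rule, and each had 1 entry among 19470 in the lung table and 1 among 18845 in the spleen table. All mice were C57BL/6 and 8 weeks old, and were wild type, lincRNA-Cox2 mutant or lincRNA-Cox2 knockout. The treated mice had received LPS by intraperitoneal injection at 20 mg/kg for 6 h, and the controls PBS, for which the labels give no time. The series held 30 libraries of mRNA, 15 per tissue, with 3 LPS and 2 PBS libraries for each of the 3 genotypes, which makes 12 groups. The series title names cis and trans immune-regulatory activity of lincRNA-Cox2, a long noncoding RNA encoded next to Ptgs2, as the question. The labels do not describe either allele, do not say that libraries of a group came from separate animals, and do not tie a lung to a spleen.

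CC chemokines are small secreted proteins with a pair of adjacent cysteines that bind G protein-coupled receptors and attract leukocytes. Ccl2, Ccl7, Ccl8 and Ccl12 are monocyte chemoattractants, of which Ccl2, Ccl7 and Ccl12 act through Ccr2. Ccl3, Ccl4 and Ccl5 draw monocytes and T cells, and Ccl3 and Ccl5 bind Ccr1. Ccl17 and Ccl22 are ligands of Ccr4, found on T cells, and Ccl20 is the ligand of Ccr6. LPS is sensed through Tlr4, which activates NF-kB, and many of these genes are known targets of that pathway in macrophages. In bulk tissue, a change in the number of cells of a type and a change in RNA per cell cannot be told apart.

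In the mouse genome (mm10, GENCODE M21 annotation) 7 of the 10 genes lie on chromosome 11 in 2 groups. Ccl2 (82035571 to 82037453), Ccl7 (82045712 to 82047525), Ccl12 (82101845 to 82103400) and Ccl8 (82115185 to 82116799) lie within 81.2 kb on the plus strand. Ccl5 (83525778 to 83530518) and Ccl3 (83647844 to 83649355) on the minus strand and Ccl4 (83662584 to 83664683) on the plus strand span 139 kb, and begin 1410 kb past Ccl8. Ccl22 (94745590 to 94751699) and Ccl17 (94810453 to 94812036) are 58.8 kb apart on chromosome 8. Ccl20 lies alone on chromosome 1 (83116766 to 83119167), the chromosome of Ptgs2 and lincRNA-Cox2, at a distance of 67 Mb from Ptgs2.

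RefSeq promoters (GRCm38.p6, the assembly of mm10) were found for 6 of the 10 genes, and the 250 bases before each start were searched for 5 motifs. Shown are the promoters with a match, for genes that differed widely in their LPS response: Ccl20, Ccl3, Ccl12 and Ccl8. They are written 5′ to 3′ in the direction of the gene, with the matches in capitals.
Ccl20, chr1:83116516-83116765, plus strand: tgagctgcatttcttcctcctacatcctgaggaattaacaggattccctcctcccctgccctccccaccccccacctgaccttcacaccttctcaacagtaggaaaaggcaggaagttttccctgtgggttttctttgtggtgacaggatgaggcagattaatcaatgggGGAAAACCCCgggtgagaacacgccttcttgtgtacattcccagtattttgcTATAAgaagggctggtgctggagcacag
Ccl3, chr11:83649379-83649628, minus strand: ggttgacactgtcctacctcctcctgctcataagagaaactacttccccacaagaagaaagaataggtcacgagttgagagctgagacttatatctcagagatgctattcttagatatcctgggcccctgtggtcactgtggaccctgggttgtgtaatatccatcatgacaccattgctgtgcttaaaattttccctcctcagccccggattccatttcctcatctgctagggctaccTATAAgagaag
Ccl12, chr11:82101595-82101844, plus strand: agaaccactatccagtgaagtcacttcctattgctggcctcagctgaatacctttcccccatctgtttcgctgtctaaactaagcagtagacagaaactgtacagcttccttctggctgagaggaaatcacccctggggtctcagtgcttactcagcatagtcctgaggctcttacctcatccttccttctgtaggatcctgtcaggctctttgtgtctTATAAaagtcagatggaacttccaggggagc
Ccl8, chr11:82114935-82115184, plus strand: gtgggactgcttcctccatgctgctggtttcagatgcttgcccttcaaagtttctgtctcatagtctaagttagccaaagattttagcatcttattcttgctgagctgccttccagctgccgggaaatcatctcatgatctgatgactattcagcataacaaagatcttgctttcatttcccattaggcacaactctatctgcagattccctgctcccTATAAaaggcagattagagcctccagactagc
The Ccl20 window held an NF-kB consensus match 80 to 71 bases before the start, and 7.01% of the 27025 promoters of the table held one on either strand. TATAA on the strand of the gene was found 28 to 24 bases before the start of Ccl20, 31 to 27 before Ccl12, 32 to 28 before Ccl8 and 11 to 7 before Ccl3. The RefSeq start used for Ccl3, next to base 83649379, lies upstream of the GENCODE start at 83649355, from which the distance is larger. TATAA was found in 16.7% of all promoters. None of the 6 windows held AP-1 (TGANTCA, 6.87% of promoters), the ISRE core (TTTC, any 2 bases, TTTC, 3.04%) or CRE (TGACGTCA, 1.62%) on either strand, and those of Ccl17 and Ccl22 held none of the 5 motifs. A match or its absence concerns only these letters in this window.

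The deposited values are group means of normalized counts, so no spread between libraries could be given, and a level or an LPS to PBS ratio below carries no error and no test. Normalized counts per group, the sum of the means over all entries, were about 7440000 to 10540000 in lung and 3560000 to 5020000 in spleen. The genotype labels were checked on lincRNA-Cox2, which had means of 34.8 with PBS and 30.2 with LPS in wild type lung and was listed at 0 in lungs of both lines. In spleen it had means of 2.13 and 3.53 in wild type, 0 in both mutant groups, and 0 and 0.322 in knockout. Ptgs2, its neighbour, had means in LPS lungs of 1397 in wild type, 1058 in mutant and 208 in knockout. Sex-linked transcripts differed between groups: in lung, Xist was 14.5 in wild type LPS, 4510 in mutant LPS and 23.2 in knockout LPS, against 1910 to 3660 in the PBS groups, and Y-linked Ddx3y was 1150, 4.73 and 1130 against 294 to 447. In spleen Xist was 31.3, 4670 and 33.7 with LPS against 2470 to 4040 with PBS. The sex makeup that these transcripts show and LPS treatment therefore cannot be told apart in the ratios below, and the mutant LPS groups also differ in sex from those of the other 2 genotypes. Defining lung markers summed to 87400 to 126000 in lung and 686 to 2360 in spleen, and defining spleen markers to 2720 to 6180 in spleen and 473 to 914 in lung. Liver-type Alb was lower with LPS in wild type, with spleen means of 855 and 121, and higher in both lines, with 8.27 and 1570 in mutant and 97.1 and 2220 in knockout spleen. In lung it had 370 and 242, 9.08 and 462, and 110 and 2460. Pancreas markers in spleen summed with PBS and LPS to 1870 and 23000 in wild type, 28500 and 34500 in mutant, and 4480 and 14600 in knockout. Skeletal muscle markers in lung summed to 2950 and 712 in knockout and to 68.2 to 80.9 in the other groups. The part of these differences in the chemokine values was not tested.

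With LPS, 9 of the 10 chemokines had means at least 2-fold higher in wild type lung, against 13.9% of the 15041 genes whose PBS or LPS mean was 10 or more. All 10 did so in mutant lung, against 15.5% of genes, and in knockout lung, against 16.9%. Ratios were taken on the log2 scale after adding 1 to each mean, and are ratios of 2 group means with no test. The median log2 ratio of the 10 genes was 4.72 in wild type, 5.06 in mutant and 5.31 in knockout lung, beside medians of -0.03, -0.03 and -0.01 over all genes. In spleen 9, 7 and 8 of the 10 reached a mean of 10, and 8, 7 and 8 were at least 2-fold higher, against 13.5%, 15.3% and 16.6% of genes. The spleen medians over the 9, 7 and 8 genes were 3.34, 5.01 and 5.51, beside all-gene medians of 0.02, 0 and -0.02. Over all 10 genes with no such minimum they were 3.16, 4.19 and 3.74, so the order of mutant and knockout turned with the low genes. None was 2-fold lower, against 14.3%, 16.0% and 17.7% of genes in lung of wild type, mutant and knockout and 14.8%, 16.7% and 18.7% in spleen.

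**Figure D1:**
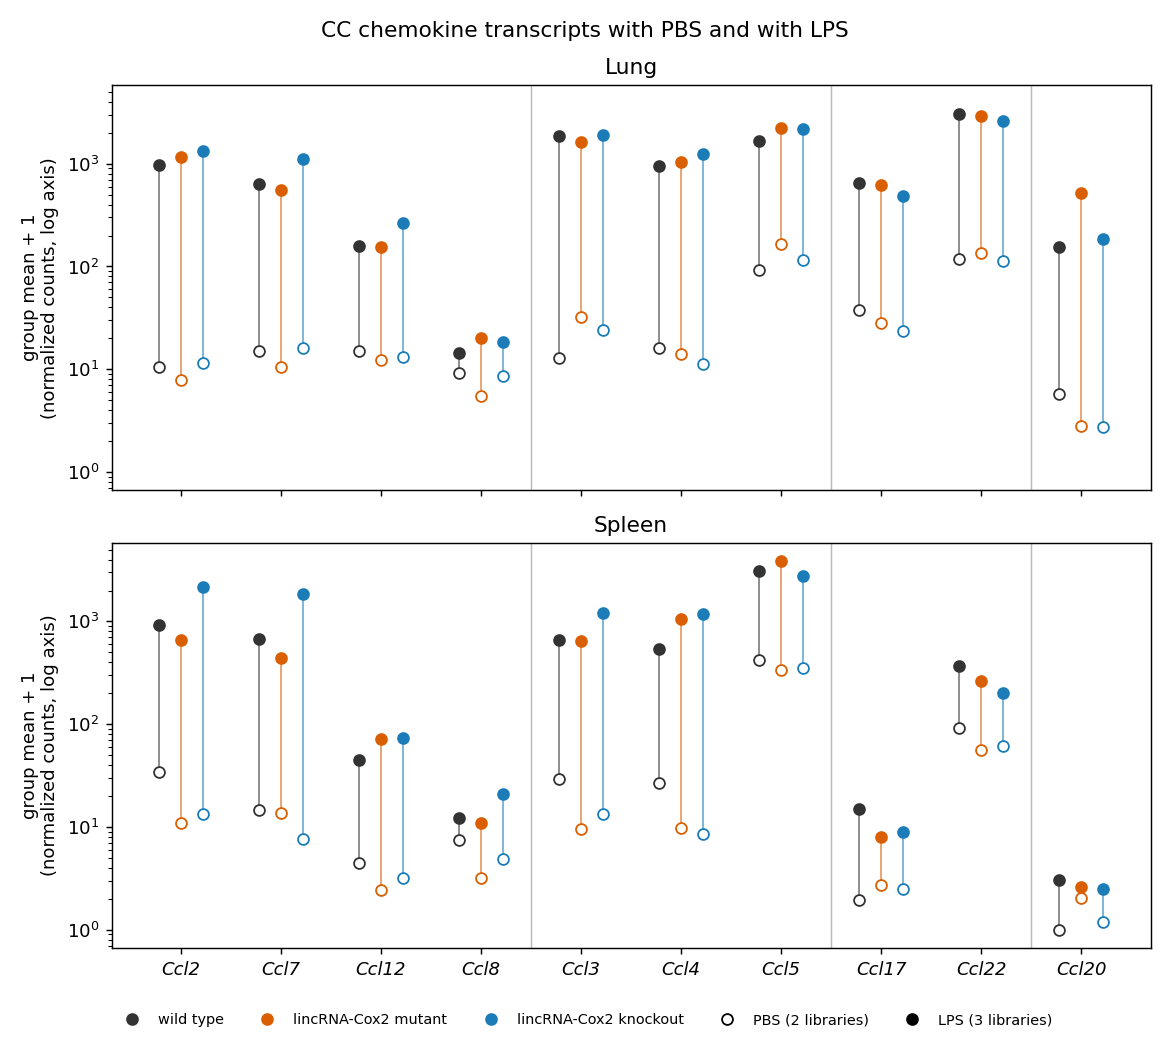
Group means of normalized counts plus 1 (log axis) of the 10 chemokines in lung (top) and spleen (bottom), open circles for PBS (2 libraries) and filled circles for LPS (3 libraries), colored by genotype. The PBS and LPS means of Ccl2, Ccl7, Ccl3 and Ccl4 lie furthest apart in 5 of the 6 tissue and genotype pairs (in mutant lung Ccl20 does), while Ccl8 stays at 20.1 or below with LPS and Ccl20 in spleen at 2.06 or below.

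Among the monocyte chemoattractants, Ccl2 in lung had PBS means of 9.47 in wild type, 6.89 in mutant and 10.6 in knockout, and LPS means, in the same order as in all that follows, of 982, 1160 and 1330. These are 93.9-, 147- and 115-fold higher, and every LPS mean lay far above every PBS mean. In spleen the Ccl2 means were 33.6, 10 and 12.5 with PBS and 915, 652 and 2140 with LPS, or 26.5-, 59.4- and 159-fold. In spleen wild type was the highest with PBS, while with LPS knockout was the highest and mutant the lowest.

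Ccl7, a second Ccr2 ligand, had lung means of 14, 9.51 and 15.2 with PBS and 641, 560 and 1120 with LPS. In spleen its means were 13.7, 12.8 and 6.66 with PBS and 671, 444 and 1860 with LPS. The knockout LPS mean was the highest in each tissue, as for Ccl2. The knockout spleen ratio of 243-fold ranked 4 of 13514 genes, and the wild type spleen ratio of 45.7-fold ranked 16 of 13513.

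Ccl12, a mouse relative of Ccl2, reached lower levels: lung means were 14.2, 11.2 and 12.1 with PBS and 159, 154 and 262 with LPS. In spleen they were 3.42, 1.45 and 2.18 with PBS and 43.8, 70.3 and 71.9 with LPS. Its fold of 10.5 in wild type lung was close to its fold of 10.1 in wild type spleen. Ccl8, which adjoins Ccl12 at a distance of 11.8 kb, had lung means of 8.15, 4.47 and 7.59 with PBS and 13.5, 19.3 and 17.2 with LPS, and spleen means of 6.49, 2.17 and 3.87 and of 11.1, 9.96 and 20.1. It had the smallest ratio of the 10 genes in lung of each genotype and, at 1.58-fold in lung and 1.62-fold in spleen, did not reach 2-fold in wild type. Reads of Ccl2, Ccl7, Ccl8 and Ccl12, which are related in sequence, could be shared between them to an extent that these values do not show.

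Of the macrophage inflammatory proteins and Ccl5, Ccl3 had lung means of 11.8, 31 and 23 with PBS and 1870, 1630 and 1910 with LPS. Its 146-fold ratio in wild type lung was the largest of the 10 and ranked 10 of 15041 genes. The lower ratios of 51- and 79.6-fold in mutant and knockout lung went with higher PBS means, while the LPS means differed little. In spleen the Ccl3 means were 28.3, 8.48 and 12.4 with PBS and 663, 648 and 1210 with LPS, and here wild type had the highest PBS mean.

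Ccl4, which lies 13.2 kb from Ccl3, had lung means of 15.2, 13.1 and 10.3 with PBS and 951, 1030 and 1230 with LPS. Its spleen means were 25.8, 8.67 and 7.55 with PBS and 543, 1060 and 1170 with LPS, so that both lines were lower than wild type with PBS and higher with LPS. The ratio in mutant spleen, 110-fold, ranked 8 of 13515.

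Ccl5, made by T and NK cells as well as by activated macrophages, stood out by its level with PBS: 90.7, 164 and 114 in lung and 419, 336 and 354 in spleen. With LPS its means were 1670, 2210 and 2200 in lung and 3080, 3870 and 2750 in spleen. The folds were smaller than those of Ccl3 and Ccl4 in every genotype and tissue, at 13.4 to 19.1 in lung and 7.34 to 11.5 in spleen. The summed means of 12 T and NK cell markers were 671, 1030 and 836 with PBS and 1990, 3530 and 2570 with LPS in lung, and 2510 to 2690 with PBS and 2340 to 2630 with LPS in spleen. The lung LPS sums were led by Gzmb (38.2, 60.4 and 53.7 with PBS, 973, 1880 and 1260 with LPS) and Gzma, genes of cytotoxic granules. With PBS Klrb1c (133, 176 and 170) and Gzma (129, 244 and 160) were the highest. The T cell gene Cd3e was 57.8, 64.7 and 76.5 with PBS and 24.5, 41.3 and 44.1 with LPS. Cd3g, Cd4 and Cd8b1 were also lower with LPS in each genotype. Cd8a was higher in each, with 33.3, 58.5 and 38.9 with PBS and 45.5, 60.6 and 50.6 with LPS. The median log2 ratios of the 12 markers were 0.38, -0.33 and 0.05 in lung and -0.48, -1.17 and -1.31 in spleen. None of them was at 0 in any group, and their part in the Ccl5 values was not tested.

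The Ccr4 ligands separated the tissues. Ccl22 had lung means of 117, 134 and 113 with PBS and 3040, 2890 and 2620 with LPS, and spleen means of 91.6, 55.1 and 59.7 and of 365, 263 and 199. Its folds were 21.4 to 25.8 in lung and 3.29 to 4.71 in spleen. Ccl17 had lung means of 36.5, 27.3 and 22.6 with PBS and 652, 618 and 488 with LPS, while no spleen group exceeded 14.1. For both genes the lung LPS means, from high to low, were in the order wild type, mutant, knockout. Markers of dendritic cells, which with macrophages are a known source of both, summed to 740 to 930 with PBS and 626 to 767 with LPS in lung, and to 1020 to 1220 and 385 to 563 in spleen (9 of 9 found, none at 0). Their part in these values was not tested. The 2 tissues were normalized in separate tables, so the difference between them is given as values with no test.

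Ccl20, made chiefly by epithelial cells and known for its action on Ccr6-bearing lymphocytes, had lung means of 4.79, 1.78 and 1.71 with PBS, which rest on at most 10, 8 and 5 reads over a group. With LPS its lung means were 154 in wild type, 521 in mutant and 184 in knockout. The mutant mean stood above the other 2, and its 188-fold ratio ranked 13 of 15092 genes. In spleen Ccl20 was listed at 0 in wild type with PBS and was at most 2.06 in any group, so no fold is given there. Epithelial markers (8 of 8 found, none at 0) summed in lung to 95000, 65000 and 65700 with PBS and 82300, 97600 and 95700 with LPS. Sftpc, Sftpb and Scgb1a1 made up most of each sum, with 40200, 15100 and 30000 in mutant LPS lung. With LPS, Krt8 (1060, 2220 and 1200), Krt18 (881, 1670 and 1130), Epcam (655, 954 and 792) and Cdh1 (4870, 6470 and 4410) were highest in mutant lung. So were Sftpc (35400, 40200 and 40000) and Sftpb (14000, 15100 and 14800), by little over knockout. Of the listed markers only Scgb1a1 (24200, 30000 and 32300), highest in knockout, and Nkx2-1 (1210, 952 and 1100), highest in wild type, were not. The part of epithelial cells in the Ccl20 values was not tested.

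**Figure D2:**
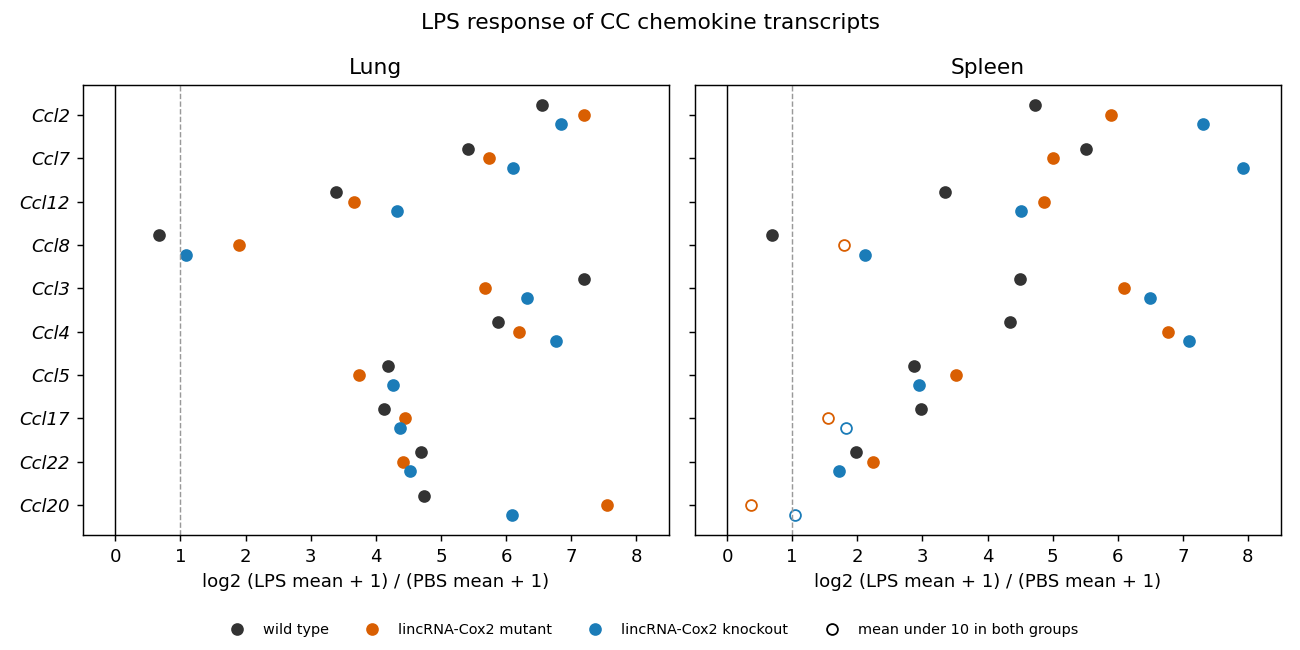
Log2 ratio of the LPS to the PBS group mean, each plus 1, for the 10 chemokines in lung (left) and spleen (right), colored by genotype, with open circles where both means were under 10 and the dashed line at 2-fold. Wild type lung ratios run from 0.66 for Ccl8 to 7.19 for Ccl3, and the knockout spleen ratio of Ccl7 is 7.92; Ccl20 in wild type spleen is not drawn because its PBS mean is 0.

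Levels of different genes were compared per kb of merged exons. In wild type lung with LPS the order was Ccl3 (2440 normalized counts per kb), Ccl5 (1740), Ccl4 (1440), Ccl22 (1310), Ccl17 (1270), Ccl2 (863), Ccl7 (800), Ccl12 (296), Ccl20 (108) and Ccl8 (26.4). In wild type spleen it was Ccl5 (3210), Ccl3 (866), Ccl7 (838), Ccl4 (823), Ccl2 (804), Ccl22 (157), Ccl12 (81.6), Ccl17 (27.4), Ccl8 (21.7) and Ccl20 (1.45). Without a spread between libraries it cannot be said which neighbours in these orders differ. Ccl5 was the highest per kb in every PBS group of either tissue and in every LPS group of spleen. In knockout spleen with LPS Ccl7 (2320) and Ccl2 (1880) came next after Ccl5 (2860), whereas in mutant spleen Ccl4 (1610) and Ccl3 (846) did after Ccl5 (4030).

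The genotype comparisons ask whether the loss or alteration of lincRNA-Cox2 goes with a change in these genes. None of the 10 chemokines was called at an adjusted p under 0.05 in any of the 12 genotype comparisons of the authors' deposited table, and none at up to 0.1. Over all entries with an adjusted p, the share called under LPS was 0.0715% for mutant over wild type, 0.441% for knockout over wild type and 0.243% for knockout over mutant in lung, and 0.00545%, 0.0241% and 0.177% in spleen. With PBS the shares were 0.00524%, 0.0421% and 0.0523% in lung and 0%, 0.160% and 0% in spleen. With so few calls over all genes, a count of 0 of 10 is near the background. Of 120 values 112 had an adjusted p. In spleen the authors' deposited table listed none for Ccl8, Ccl17 and Ccl20 in knockout over mutant with LPS, nor for Ccl8, Ccl12, Ccl17, Ccl20 and Ccl22 in knockout over wild type with PBS. Unadjusted p-values were not analysed here.

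The lowest adjusted p was 0.181, for Ccl7 in LPS spleen of knockout over mutant, with a log2 fold of 1.76 in the authors' deposited table. For the same gene the authors' deposited table gave 1.26 (adjusted p = 0.588) for knockout over wild type and -0.50 (adjusted p = 1) for mutant over wild type. Ccl2 was next, at 1.46 (adjusted p = 0.313) for knockout over mutant and 1.04 (adjusted p = 0.628) for knockout over wild type in the authors' deposited table. In spleen with LPS the knockout over wild type log2 folds of the authors' deposited table were 0.96 for Ccl4, 0.78 for Ccl3, 0.76 for Ccl8 and 0.63 for Ccl12, with adjusted p of 0.628 to 0.736. Those of Ccl22, Ccl17, Ccl5 and Ccl20 were below 0, the lowest being -0.80 for Ccl22 with an adjusted p of 0.617 from the authors' deposited table. The median of the 10 folds was 0.69, beside -0.04 over all entries of the authors' deposited table, and for mutant over wild type -0.07 beside -0.02. The comparisons share the same wild type, mutant or knockout libraries.

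In lung with LPS, Ccl20 had the largest fold, 1.46 for mutant over wild type (adjusted p = 0.972) and -1.25 for knockout over mutant (adjusted p = 0.685) in the authors' deposited table. Group means of 154, 521 and 184 thus gave no call. Ccl7 had 0.77 for knockout over wild type (adjusted p = 0.503) and 0.95 for knockout over mutant (adjusted p = 0.439), and Ccl12 had 0.68 (adjusted p = 0.548) and 0.73 (adjusted p = 0.634), in the authors' deposited table. For knockout over wild type 8 of the 10 folds were above 0 and only those of Ccl17 (-0.41) and Ccl22 (-0.21) below, with a median of 0.34 beside -0.01 over all entries of the authors' deposited table. For mutant over wild type 5 were above and 5 below 0, with a median of 0.03.

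With PBS the median of the 10 folds in spleen was -0.47 for mutant over wild type and -0.45 for knockout over wild type. Over all entries of the authors' deposited table it was 0.001 and -0.007. Of the 10 folds, 8 were below 0 for mutant over wild type and 8 for knockout over wild type. The largest of these were -1.14 and -0.86 for Ccl3, -0.87 and -1.03 for Ccl4 and -0.86 and -0.77 for Ccl2, in mutant and knockout in turn, and the authors' deposited table gave adjusted p of 0.999 to 1. In lung with PBS, Ccl3 had 1.16 in mutant and 0.74 in knockout over wild type, and Ccl5 had 0.82 in mutant, and the authors' deposited table gave an adjusted p of 1 for each. Each PBS group held only 2 libraries, and both spleen comparisons with wild type share the same wild type libraries. Ccl8 and Ccl12, among the spleen folds below 0, had PBS means of 6.49 or less there.

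**Figure D3:**
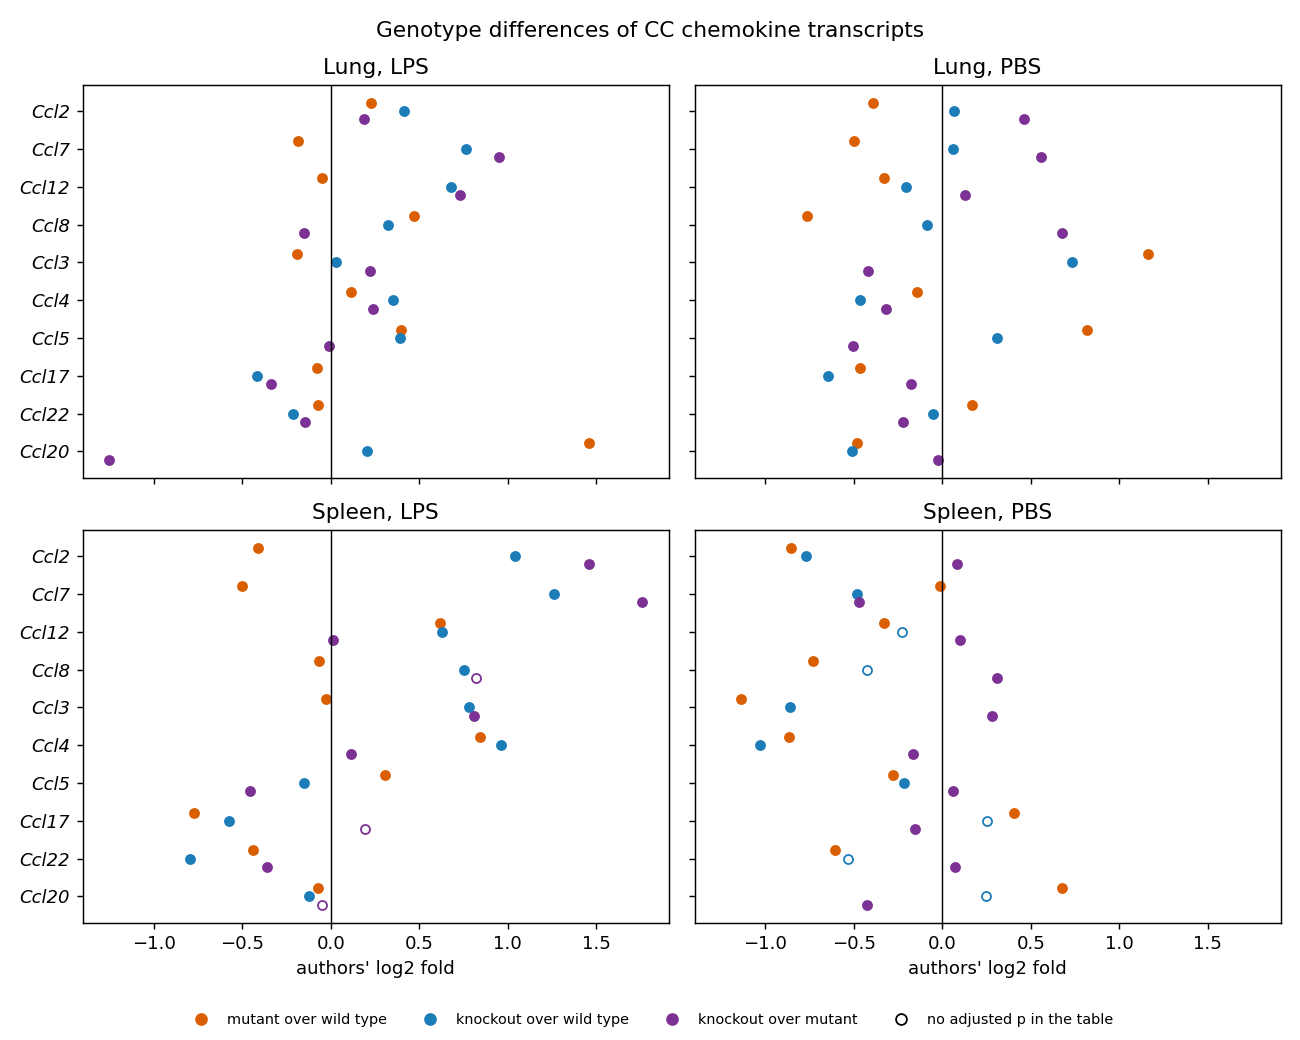
The authors' deposited log2 folds of the 10 chemokines for the 3 genotype comparisons, in lung and spleen (rows) with LPS and PBS (columns), with open circles where the table gives no adjusted p. Most folds lie within 1 of 0, and Ccl7 and Ccl2 in LPS spleen and Ccl20 in LPS lung reach furthest, none of them with an adjusted p under 0.05.

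The LPS to PBS ratio itself was then set side by side between genotypes, as a difference of log2 ratios with no test. In spleen the difference from wild type had a median of 1.10 in mutant and 1.42 in knockout over the 9 genes that reached a mean of 10 in some group compared, and 5 and 6 of these 9 differed by 1 or more upward. Over all genes 6.79% and 9.06% did so, and the median difference was -0.02 in each line. Both medians of the 9 genes are the value of Ccl8, whose PBS means rest on at most 30, 9 and 19 reads over a group. The PBS means of Ccl12, which differed upward by 1.52 in mutant and 1.18 in knockout, rest on at most 15, 6 and 11. In knockout spleen the differences were 2.75 for Ccl4, 2.58 for Ccl2, 2.41 for Ccl7 and 2.00 for Ccl3. Each splits into a part from the LPS means and a part from the PBS means: 1.11 and 1.65 for Ccl4, 1.22 and 1.36 for Ccl2, 1.47 and 0.94 for Ccl7, and 0.87 and 1.13 for Ccl3. In mutant spleen the difference of Ccl2, 1.17, came wholly from the PBS means (1.65), since the LPS part was -0.49, and that of Ccl3, 1.59, likewise (1.63 and -0.03). Ccl17 differed downward, by -1.42 in mutant and -1.14 in knockout, at means of 14.1 or less. Its PBS means rest on at most 4, 7 and 7 reads over a group in wild type, mutant and knockout, and its LPS means in the lines were 7.04 and 7.85.

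In lung the medians were 0.32 in mutant and 0.35 in knockout over the 10 chemokines, beside 0.02 and -0.02 over all genes. Of the 10, 2 in mutant and 1 in knockout differed by 1 or more upward, against 2.86% and 4.29% of all genes. Ccl20 differed by 2.81 in mutant, of which 1.75 came from the LPS means, and by 1.35 in knockout, of which 0.26 did. Ccl8 differed by 1.23 in mutant. Ccl3 differed downward by -1.52 in mutant, of which -1.32 came from the PBS means.

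Markers of cells that can make these chemokines were set beside them. In lung 13 of 13 monocyte and macrophage markers were found, and their summed means were 26300, 18300 and 17800 with PBS and 37000, 36700 and 39900 with LPS in wild type, mutant and knockout. In spleen the sums were 8770, 7740 and 7310 with PBS and 6930, 10100 and 7060 with LPS. Lyz2 alone made up 22100 of the wild type PBS sum in lung and 21200 of the LPS sum. Single markers went opposite ways: of the 13, 6, 5 and 5 were at least 2-fold higher and 2 lower in each genotype in lung, and 1, 4 and 3 were higher and 6, 4 and 5 lower in spleen. Over all genes 13.9%, 15.5% and 16.9% were higher and 14.3%, 16.0% and 17.7% lower in lung. In spleen 13.5%, 15.3% and 16.6% were higher and 14.8%, 16.7% and 18.7% lower. The 2 lower in lung and the 1 higher in wild type spleen are near those shares or below them. In wild type lung Cd14, a co-receptor for LPS, had 271 with PBS and 5620 with LPS, and Cx3cr1, a receptor of patrolling monocytes, 111 and 15.9. The summed means of the 10 chemokines were 322, 403 and 330 with PBS and 10100, 10800 and 11400 with LPS in lung, and 623, 437 and 461 and 6310, 7030 and 9430 in spleen. Neutrophil markers (7 of 8 found) summed to 2440 to 3020 with PBS and 19100 to 20700 with LPS in lung. In spleen they summed to 1860 to 3020 with PBS and, with LPS, to 3420 in wild type, 8570 in mutant and 2250 in knockout. No marker of either list was at 0 in any group, and the part of these cells in the chemokine values was not tested.

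All 13 listed chemokine receptors were found, and none was called in any genotype comparison of the authors' deposited table, the lowest adjusted p being 0.517. In spleen only 1 of the 13 had an adjusted p in knockout over wild type with PBS, and 9 in knockout over mutant with LPS. In lung 6 of 11 receptors with a mean of at least 10 were at least 2-fold higher with LPS in wild type, 5 of 10 in mutant and 5 of 9 in knockout, and 1 was lower in each. The shares over all genes were 13.9%, 15.5% and 16.9% higher and 14.3%, 16.0% and 17.7% lower. In spleen 2 of 11, 3 of 10 and 3 of 10 were higher and 3, 5 and 5 lower, against 13.5%, 15.3% and 16.6% and 14.8%, 16.7% and 18.7% of all genes. In spleen the counts of higher receptors lay nearer to those shares than the counts of lower ones, which were above them in each genotype. All these counts rest on few receptors and carry no test. Ccr2, the monocyte receptor of Ccl2, Ccl7 and Ccl12, had lung means of 473, 426 and 375 with PBS and 551, 285 and 562 with LPS, and spleen means of 208, 197 and 183 and of 41, 46.4 and 47.2. So in spleen the receptor was lower with LPS in each genotype where its ligands Ccl2, Ccl7 and Ccl12 were higher.

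Ccr1, which binds Ccl3 and Ccl5, had lung means of 128, 146 and 104 with PBS and 1620, 1490 and 1540 with LPS. In spleen it had 115, 50.3 and 48.1 with PBS and 73.8, 143 and 104 with LPS, so that the direction differed between wild type and the lines. Ccr4, the receptor of Ccl17 and Ccl22, was at most 13.2 in any group, and Ccr6, the receptor of Ccl20, was 9.07 to 13.6 in lung and 39.1 to 71.4 in spleen.

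Ccr7, which guides dendritic and T cells to lymphoid tissue, had lung means of 73 to 114 with PBS and 584 to 638 with LPS, and spleen means of 334 to 406 and of 1650 to 2190. Ccr3, the eosinophil receptor of eotaxins, which also binds Ccl5 and Ccl7, had spleen means of 172, 144 and 211 with PBS and 4.22, 19.5 and 6.55 with LPS, and at most 3.03 in lung. Ccr8, a T cell receptor that binds mouse Ccl8, was 1.44 to 20.4 over all groups, Ccr9 16.3 to 28 in lung and 17.3 to 68.9 in spleen, and Ccr10 at most 4.74. These are group means with no test.

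The atypical receptors, which bind chemokines without classical G protein signaling, differed in direction in lung. Ackr1, listed under its older name Darc and found on venular endothelium, had lung means of 4.21, 5.88 and 6.83 with PBS and 426, 350 and 424 with LPS. Ackr2, a scavenger of inflammatory CC chemokines, had 378, 554 and 528 with PBS and 1380, 1100 and 1200 with LPS. Ackr4, a scavenger of homeostatic chemokines, had 115, 143 and 188 with PBS and 3.44, 4.56 and 0.463 with LPS. Ccrl2, a related receptor without chemokine signaling of its own, had 274, 350 and 330 and then 2940, 4130 and 2510. In spleen Ackr1 had 28.8 to 49.2 with PBS and 40.7 to 44.9 with LPS, Ackr2 23.3 to 37.4 and 11 to 19.5, Ackr4 7.6 to 15.3 and 1.7 to 2.66, and Ccrl2 25.3 to 43.1 and 367 to 602. Ackr1 thus had an LPS to PBS ratio far above 2-fold in lung and below 2-fold in spleen. Summed endothelial markers were 37000 to 43800 with PBS and 27000 to 30300 with LPS in lung, with 8 of 8 markers found and none at 0. Among them Cdh5 had 7600 and 14700 in wild type, and Tek 3270 and 316. The part of endothelial cells in the Ackr1 values was not tested.

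**Figure D4:**
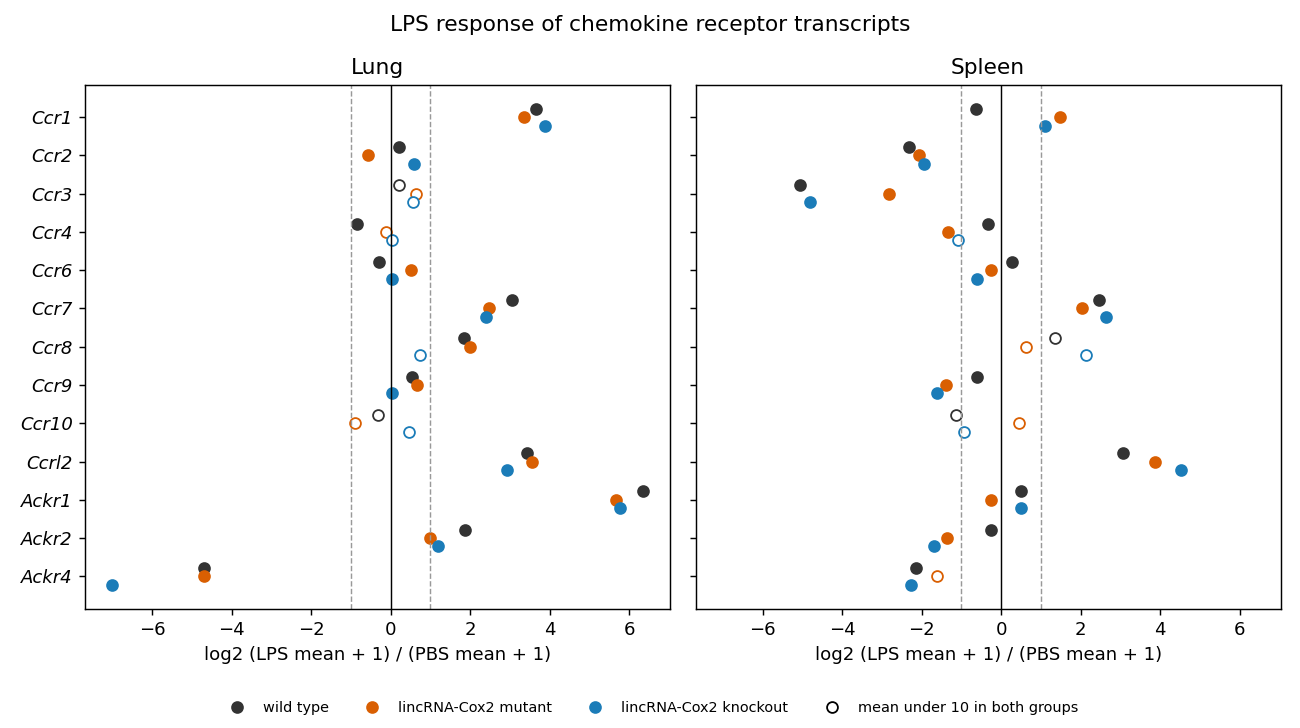
Log2 ratio of the LPS to the PBS group mean, each plus 1, for 13 chemokine receptors in lung (left) and spleen (right), colored by genotype, with open circles where both means were under 10 and dashed lines at 2-fold. In lung Ackr1 lies at 5.67 to 6.36 and Ackr4 at -7.01 to -4.69, and in spleen Ccr2 lies at -2.32 to -1.93.

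The genes whose pattern was most like that of Ccl2 were found over the 12 group means on the log2 scale, centred within each tissue. Among 13387 genes they were Nampt (r = 0.998), Pogk (0.998), Trib1 (0.998), Gm13889 (0.997) and Ppa1 (0.997). Of the chemokines, Ccl3 (0.992) ranked 47, Ccl4 (0.990) 66 and Ccl7 (0.988) 121, followed by Ccl12 (0.982), Ccl5 (0.974), Ccl22 (0.933), Ccl17 (0.931) and Ccl8 (0.921). Ccl20 was not ranked, since it had no mean of 10 in spleen. All points share the contrast of LPS with PBS, and 1976 genes had an r over 0.9, so the values describe a common direction and little more.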

How the data were processed

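Lungs and spleens were profiled by mRNA sequencing, in 1 table for each tissue. The submitters' processing notes name DESeq2, bedtools, SAMtools, Bowtie2 and STAR 2.5.3a with the mm10 genome, and no order or settings, and whether counting used strand is not given in the sources used here. Per the file headers, the authors' deposited tables give group means of a normalized signal (counts divided by DESeq2 size factors), log2 folds of 6 genotype comparisons per tissue, which are pulled towards 0, and adjusted p-values, which are handled as a score that the authors computed. Most values carry 3 digits. Values per library and total counts were not used here, so the depth per library is unknown: the smallest mean above 0, 0.199 to 0.441 per group, bounds what 1 read is worth.

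With Python 3.11.15, pandas 2.3.3 and numpy 2.4.6, 6 broken lines in lung and 5 in spleen were left out, and 1026 split spleen symbols rejoined. LPS to PBS ratios were log2 of means plus 1, for genes whose PBS or LPS mean was 10 or more, with a limit of 2-fold and no test. Genotype calls are the authors' adjusted p under 0.05. The ratio formula, the filter and the 2-fold limit were tested on simulated group means, and the motif search on planted motifs. Named are all 10 chemokines, all listed receptors, lincRNA-Cox2 and Ptgs2, Xist, Ddx3y and Alb where groups stood apart, and the 5 genes most like Ccl2. Genes with the largest and smallest wild type ratio are named in the other CC chemokine, NF-kB, monocyte, T and NK cell, epithelial and endothelial lists. No single dendritic or neutrophil marker is named. Outside that rule Lyz2 and further T and NK cell and epithelial markers are named to show what the sums of their lists hold. The chemokines and all lists were chosen with earlier results of these data known. Figures were drawn with matplotlib 3.10.9. Alternatives tried were other pseudocounts (0.1 and 10), filters, fold limits, centring, an adjusted p of up to 0.1, ratios of means in place of the authors' folds, and summed entries of repeated symbols. Protein sequences were not used here, and 1 receptor is not reported here.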

Additional observations from a re-analysis of the deposited data

How the results depend on the processing

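Counts of chemokines past 2-fold and of genotype calls stayed within 1.5 times the reported count under all alternatives run, and no direction of a median reversed. The median LPS log2 ratio over genes past the filter (4.72, 5.06 and 5.31 in lung, 3.34, 5.01 and 5.51 in spleen of wild type, mutant and knockout) moved by more than 1.5-fold, as an unlogged ratio, under some settings. With a mean of at least 50 required it was 5.67 in mutant and 6.09 in knockout lung, and 4.42 in wild type and 6.5 in knockout spleen, over fewer genes. With a pseudocount of 10 it was 4.29 in knockout lung, and 4.32 in mutant and 4.34 in knockout spleen. In wild type and mutant lung it was then 4.32 and 4.60, so knockout turned from the highest to the lowest in lung. With no filter it was 4.19 in mutant and 3.74 in knockout spleen, over all 10 genes in place of 7 and 8. The median difference between knockout and wild type ratios in spleen was 0.76 with a pseudocount of 10. That between mutant and wild type ratios was 0.64 with this pseudocount, against 1.10 as reported. Of the values of single genotype folds under other settings, 230 lay within 1.5-fold and 10 did not. The latter were ratios of means for low PBS groups: Ccl20 in knockout over wild type lung, and Ccl2 and Ccl4 in both lines over wild type spleen, where they reached -1.36 to -1.65 against the authors' deposited -0.77 to -1.03. No paired analysis was possible because the tables hold group means and the labels carry only serial library numbers. Leaving out each replicate in turn was not run for the same reason. Depth limits Ccl20 most, with at most 5 to 10 reads per PBS lung group, and also Ccl17 in spleen, with at most 4 to 7 per PBS group. Spleen PBS groups of Ccl12 and Ccl8 held at most 6 to 15 and 9 to 30.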

Other observations

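Of 10 other CC chemokines 9 were found. In lung 3 of 6 with a mean of at least 10 were at least 2-fold higher with LPS in wild type, 4 of 7 in mutant and 4 of 7 in knockout, against 13.9%, 15.5% and 16.9% of all genes, and none was 2-fold lower. In spleen 3 of 6, 3 of 7 and 2 of 7 were higher, against 13.5%, 15.3% and 16.6%, and 1 was lower in each. Ccl19, a ligand of Ccr7, had the largest ratio in wild type lung, with means of 24.4 with PBS and 618 with LPS, and Ccl27a the smallest, with 46.2 and 28.9. Ccl19 has several near-identical copies in the mouse genome, so its values are uncertain. In wild type spleen Ccl11, an eotaxin that attracts eosinophils, had the largest ratio, with means of 21.3 and 286, and Ccl6 the smallest, with 205 and 50.8. In mutant and knockout spleen Ccl11 had 6.68 and 11 with PBS and 218 and 493 with LPS. None of the 9 was called in a genotype comparison of the authors' deposited table, where the lowest adjusted p was 0.266 and only 1 of the 9 had one for PBS spleen of knockout over wild type.

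All 10 NF-kB subunits and inhibitors had higher LPS than PBS means in every genotype and tissue. In lung 9, 10 and 9 of them were at least 2-fold higher in wild type, mutant and knockout, with median log2 ratios of 2.28, 3.00 and 2.70, and in spleen 7, 8 and 9, with medians of 1.62, 1.42 and 1.52. Of all genes 13.9%, 15.5% and 16.9% were 2-fold higher in lung and 13.5%, 15.3% and 16.6% in spleen, with medians of -0.03 to 0.02. Tnfaip3, which encodes the NF-kB inhibitor A20, had the largest ratio in wild type lung, with means of 215 and 7330, and Rela, a subunit, the smallest, with 1010 and 1630. None was called between genotypes in the authors' deposited table, where the lowest adjusted p was 0.310.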
